A study of Caenorhabditis elegans with 10 samples.

Results

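The genes of trehalose synthesis and breakdown were followed in embryos of the nematode Caenorhabditis elegans placed on high salt. The set was chosen by name: the trehalose 6-phosphate synthases tps-1 and tps-2, the trehalose 6-phosphate phosphatase gob-1, and the trehalases tre-1, tre-2, tre-3, tre-4 and tre-5. These are 8 of the 45461 genes in the deposited table, and all 8 were among the 14802 genes with enough reads to test. The data are polyadenylated-RNA sequencing of whole embryos, 3 hours after egg preparation, in 10 libraries that form 5 groups of 2. N2, the wild-type strain, and lin-45(n2018), which carries a mutated RAF kinase gene, were each placed on 50 mM or 500 mM NaCl after their parents had grown on 50 mM. The last group, called preconditioned here, held N2 embryos on 500 mM NaCl whose parents had grown on 300 mM. All groups thus share the time of collection. The mutant is represented by 1 allele, and whether the 2 libraries of a group are separate cultures is not stated in the labels. The spread behind every p-value may thus be technical only.

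Trehalose is a sugar of linked glucose units that many invertebrates and fungi store and use against drying, heat and osmotic stress. It is made in sequential steps: a trehalose 6-phosphate synthase joins glucose 6-phosphate to the glucose of UDP-glucose, and a phosphatase then removes the phosphate. Trehalases split trehalose back into glucose. In Caenorhabditis elegans trehalose accumulates in the dauer larva, where the tps genes are needed for survival of desiccation. Loss of gob-1 in this nematode obstructs the gut and stops larval development, and this needs the tps genes.

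Libraries held 22138098 to 34585489 counts. Within a group, the 2 libraries differed by a root mean square of 0.269 to 0.424 (log2 per gene) where the parents grew on 50 mM, and of 0.587 in the preconditioned group. Markers of the adult body summed to 4.16 to 10.8 CPM (counts after scaling every library to one common size) and sperm markers to 1.28 to 3.61 CPM per library, against 7622 to 13773 CPM for genes of late embryos. At 3 hours the embryos differed in other markers as well. Early-embryo markers summed to 75.1 to 80.0 CPM in the 4 libraries on 50 mM and to 107 to 169 CPM in N2 and lin-45 embryos on 500 mM. In the preconditioned libraries they summed to 249.7 CPM in replicate 1 and 108 CPM in replicate 2. Late-embryo markers summed to 7622 and 7654 CPM in lin-45 embryos on 50 mM and to 10342 CPM or more in the other 8 libraries. Against N2 on 50 mM, the gap in this sum was carried by the collagen gene sqt-3. Without sqt-3 the sum was 7234 and 6607 CPM in lin-45 and 6418 and 6312 CPM in N2 on 50 mM. It was 7596 to 10051 CPM in the libraries on 500 mM, still above both lin-45 libraries on 50 mM. On 50 mM the largest part of the sum without sqt-3 was unc-54, at 5141 and 4457 CPM in lin-45 and 3341 and 3486 CPM in N2. The sum can thus hide lower levels of other markers. Of the 13 late-embryo markers, 8 were lower and 3 higher in lin-45 than in N2 on 50 mM (unc-54 and fbn-1 among the higher, dpy-7 and dpy-10 among the lower). Whole embryos were sequenced, so fewer cells of a type and less RNA per cell cannot be told apart.

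On the length-corrected FPKM scale (fragments per kilobase of transcript, scaled to library size), gob-1 was the most abundant of the 8 transcripts, with a mean of 57.1 FPKM over the 10 libraries. The trehalase tre-1 followed at 41.0, tps-2 at 40.7 and tps-1 at 36.9 FPKM. The trehalases tre-3 and tre-2 had means of 19.3 and 19.1 FPKM, and tre-4 and tre-5 of 7.22 and 6.37 FPKM. The synthases, the phosphatase and 1 trehalase thus formed the upper part of this range and tre-4 and tre-5 the lower. Over the 5 groups, the ratio of the highest to the lowest group mean in CPM was 3.61 for tre-2, 2.55 for tre-5, 2.54 for tps-1, 2.28 for gob-1, 2.12 for tre-4, 2.07 for tps-2, 1.76 for tre-3 and 1.30 for tre-1.

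**Figure D1:**
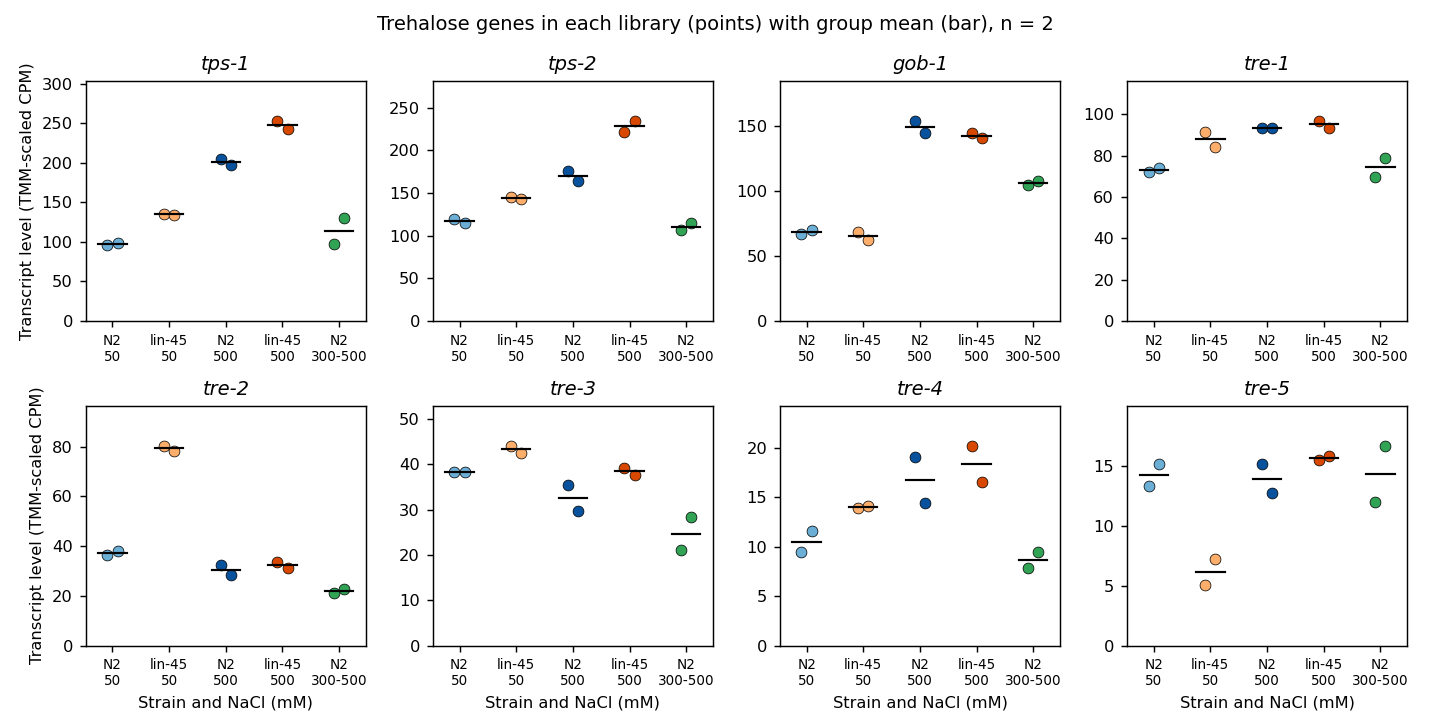
TMM-scaled CPM (vertical axes, a panel per gene) of the 8 trehalose genes in each of the 10 libraries, with points for libraries and bars for the mean of the 2 libraries of a group. In tps-1, tps-2 and gob-1 the N2 and lin-45 libraries on 500 mM lie above those on 50 mM, tre-2 is highest in lin-45 on 50 mM, and tre-5 is lowest there.

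The first comparison asked how N2 embryos responded to 500 mM salt. In N2, both synthases and the phosphatase rose, together with tre-1 and tre-4, while tre-2 fell. That is 5 members higher and 1 lower, in a comparison where 63.5% of all tested genes were called, 31.4% higher and 32.1% lower. The median log2 fold change was 0.45 over the 8 genes and -0.01 over all tested genes. In lin-45 embryos, 4 members rose (tps-1, tps-2, gob-1 and tre-5) and 1 fell (tre-2), where 68.3% of all genes were called, 33.4% higher and 34.9% lower. The median there was 0.53 over the 8 genes and -0.02 over all. All-gene values in lin-45 moved by a median of 0.14 without lin-45 500 mM replicate 2 or either preconditioned library. The differences between the strains' responses moved by 0.15 with the same libraries left out, so small values in both are read against these shifts.

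The synthase tps-1 lies on the minus strand of chromosome X at 17467045 to 17474460 in the build ce10. It was at 96.2 and 98.2 CPM in N2 on 50 mM and at 205 and 198 CPM in N2 on 500 mM. In lin-45 it was at 135 and 134 CPM on 50 mM and at 253 and 242 CPM on 500 mM. Every library on 500 mM was above every library of the same strain on 50 mM. The log2 fold change with salt was 1.05 ± 0.12 (SE) in N2 (adjusted p = 9.83e-05) and 0.88 ± 0.12 in lin-45 (adjusted p = 0.000215). The difference between these responses, -0.17 with a 95% interval from -0.55 to 0.21, was not called (adjusted p = 0.470).

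The second synthase, tps-2, lies on the plus strand of chromosome II at 14600826 to 14610476. It was at 119.2 and 115 CPM in N2 on 50 mM and at 176 and 164 CPM on 500 mM. The lin-45 libraries were at 145 and 143 CPM on 50 mM and at 222 and 234 CPM on 500 mM. As for tps-1, no library on 500 mM overlapped those of its strain on 50 mM, but the rise was smaller. The log2 fold change was 0.54 ± 0.08 in N2 (adjusted p = 0.00032) and 0.67 ± 0.08 in lin-45 (adjusted p = 7.21e-05). The difference of 0.13, with a 95% interval from -0.11 to 0.37, was not called (adjusted p = 0.388). Its estimate was 0.28 without preconditioned replicate 1 and 0.28 without preconditioned replicate 2. The gene model of tps-2 shares 841 bases with that of arl-3 on the same strand, of which 24 are exonic in both. It also overlaps F19H8.2 on the opposite strand by 1496 bases, with 0 exonic bases shared. The level of F19H8.2 was 8.42 and 9.44 CPM in N2 and 50.0 and 33.3 CPM in lin-45 on 50 mM, and 12.0 and 10.2 CPM in N2 and 11.8 CPM in both lin-45 libraries on 500 mM. The strandedness of counting is not given in the sources used here, and its part in the tps-2 counts was not tested.

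The phosphatase gob-1, which acts on the product of the synthases, lies on the plus strand of chromosome X at 15493467 to 15497412. It was at 67.3 and 69.8 CPM in N2 on 50 mM and at 154 and 145 CPM on 500 mM. Its lin-45 levels were 68.9 and 62.4 CPM on 50 mM and at 144 and 141 CPM on 500 mM. The strains overlapped on 50 mM, and both were more than doubled on 500 mM, with a fold change of 2.18 in N2 and 2.17 in lin-45. The log2 fold change was 1.12 ± 0.08 in N2 (adjusted p = 5.90e-06) and 1.12 ± 0.08 in lin-45 (adjusted p = 4.57e-06). The 95% interval of the difference between strains ran from -0.25 to 0.24. Its estimate of -0.0016 changed sign with the scaling of the libraries (upper-quartile factors gave 0.10).

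**Figure D2:**
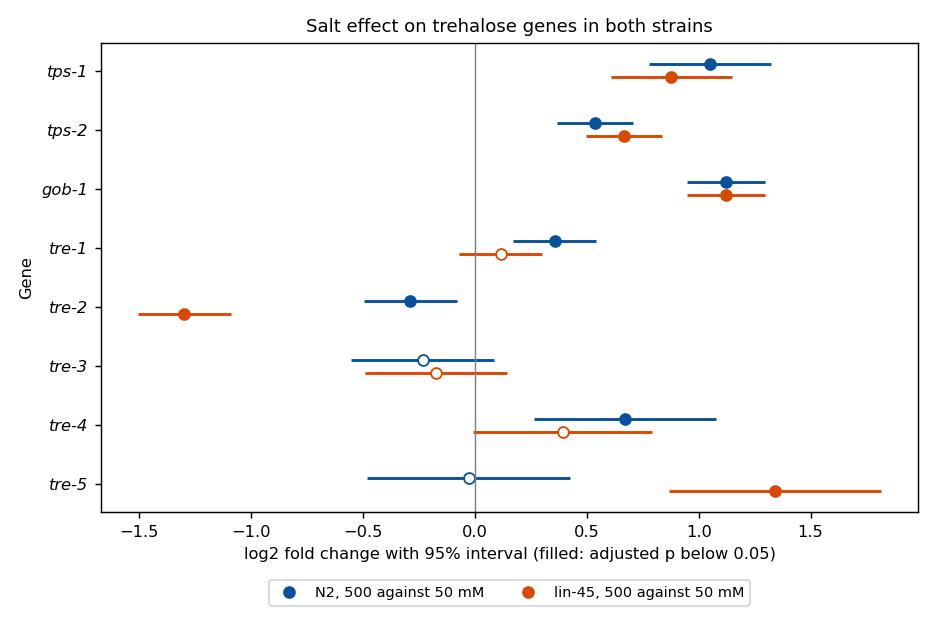
Log2 fold changes of the 8 genes on 500 mM against 50 mM NaCl in N2 and in lin-45 (horizontal axis), with bars for 95% intervals of the edgeR fit. The tps-1, tps-2 and gob-1 estimates lie near each other in the 2 strains, and those of tre-2 (-0.29 and -1.30) and tre-5 (-0.03 and 1.34) lie apart.

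The trehalases moved in different directions. The most abundant, tre-1, on the plus strand of chromosome I at 6554729 to 6558594, was at 72.0 and 74.0 CPM in N2 on 50 mM and at 93.3 and 93.5 CPM on 500 mM. In lin-45 it was at 91.6 and 84.3 CPM on 50 mM and at 96.8 and 93.6 CPM on 500 mM. The libraries on 500 mM were above those on 50 mM in both strains, by little in lin-45. It rose in N2 by 0.36 ± 0.08 on the log2 scale (adjusted p = 0.00494). This call was lost where no filter on low counts was applied (0.22, adjusted p = 0.0595). In lin-45 the log2 difference of 0.11, with a 95% interval from -0.07 to 0.30, was not called (adjusted p = 0.239), though it passed the threshold in 4 of the 19 alternatives. The difference between the strains' responses, -0.24, was not called either (adjusted p = 0.150).

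The trehalase tre-2 lies on the minus strand of chromosome IV at 6876718 to 6883431. It was at 36.5 and 37.9 CPM in N2 on 50 mM and at 32.4 and 28.5 CPM on 500 mM. The lin-45 libraries were at 80.4 and 78.4 CPM on 50 mM and at 33.4 and 31.1 CPM on 500 mM. The lin-45 libraries on 50 mM thus stood above all the others, and the strains overlapped on 500 mM. The fall in lin-45 was -1.30 ± 0.09 on the log2 scale (adjusted p = 5.00e-06). In N2 it was -0.29 ± 0.09 (adjusted p = 0.0215), and this call was lost without N2 50 mM replicate 1 (-0.32, adjusted p = 0.0558), N2 50 mM replicate 2 (-0.26, adjusted p = 0.106) or N2 500 mM replicate 2 (-0.20, adjusted p = 0.153). The responses differed between the strains by -1.01 ± 0.13 (adjusted p = 0.00471), in a test in which 26.4% of all genes were called, 12.2% higher and 14.3% lower. Of those calls 46.04% were higher, and with upper-quartile factors 65.8% were.

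The other gene whose salt response differed between strains was tre-5, on the minus strand of chromosome II at 53012 to 55304. It was at 13.3 and 15.1 CPM in N2 on 50 mM and at 15.2 and 12.7 CPM on 500 mM. The lin-45 libraries had 5.08 and 7.18 CPM on 50 mM and at 15.5 and 15.8 CPM on 500 mM. The lin-45 libraries on 50 mM were below all other libraries, which lay between 11.9 and 16.7 CPM. In lin-45 tre-5 rose by 1.34 ± 0.21 on the log2 scale (adjusted p = 0.000472). In N2 the difference was -0.03, with a 95% interval from -0.48 to 0.42 (adjusted p = 0.908). The difference between responses was 1.37 ± 0.29 (adjusted p = 0.0135). It was not called without N2 50 mM replicate 1 (1.46, adjusted p = 0.0505) or N2 500 mM replicate 2 (1.25, adjusted p = 0.0580), which left 1 of the 8 members called. The same 2 lin-45 libraries on 50 mM enter the salt response of lin-45, its difference from N2 and the comparison of strains on 50 mM, so the values of tre-2 and tre-5 in these are not independent.

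The whole of tre-5, 2293 bases, lies inside the gene sptl-1 on the opposite strand, with 0 exonic bases shared. With strandedness not given, reads of the 2 genes may not be fully separable. The level of sptl-1, which encodes a subunit of serine palmitoyltransferase, moved the other way. It was at 160.0 and 148 CPM in lin-45 on 50 mM and at 102 and 101 CPM in lin-45 on 500 mM, a log2 fold change of -0.60 ± 0.08 (adjusted p = 0.000154). In N2 it was at 82.5 and 90.4 CPM on 50 mM and at 102 and 102 CPM on 500 mM.

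The trehalases tre-4 and tre-3 did not pass the threshold for a difference of responses between strains (-0.28 and 0.06 on the log2 scale, adjusted p = 0.434 and 0.851). The gene tre-4, on the plus strand of chromosome X at 13472086 to 13475831, was at 9.43 and 11.6 CPM in N2 on 50 mM and at 19.1 and 14.4 CPM on 500 mM. In lin-45 it was at 13.9 and 14.1 CPM on 50 mM and at 20.2 and 16.5 CPM on 500 mM. Salt libraries were higher in both strains without overlap. The rise in N2, 0.67 ± 0.18 on the log2 scale (adjusted p = 0.0101), was lost without N2 50 mM replicate 1 (0.53, adjusted p = 0.0762) or N2 500 mM replicate 1 (0.46, adjusted p = 0.0827). In lin-45 the difference of 0.39 ± 0.18 was not called (adjusted p = 0.0748), and it passed in 7 of the 19 alternatives.

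The trehalase tre-3, on the minus strand of chromosome V at 11709756 to 11715885, was at 38.3 CPM in both N2 libraries on 50 mM and at 35.3 and 29.7 CPM on 500 mM. Levels in lin-45 were 44.1 and 42.6 CPM on 50 mM and at 39.3 and 37.6 CPM on 500 mM. The libraries on 500 mM were lower in each strain, by a small margin. The log2 differences were -0.23 in N2, with a 95% interval from -0.55 to 0.09 (adjusted p = 0.174), and -0.17 in lin-45, with an interval from -0.49 to 0.15 (adjusted p = 0.295). Neither was called, though the N2 difference passed in 4 of the 19 alternatives.

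The strains were next compared on 50 mM, without the salt challenge. The lin-45 embryos had higher tps-1, tps-2, tre-1 and tre-2 and lower tre-5, or 4 members higher and 1 lower. Of all genes 54.3% were called, 33.2% higher and 21.1% lower. The median log2 difference was 0.28 over the 8 genes and 0.16 over all tested genes. This all-gene median moved by -0.13 or -0.14 with FPKM values, with no filter, with only the compared groups in the fit, and without lin-45 500 mM replicate 2 or either preconditioned library, so small differences here are read against it. Of all calls, 61.2% were higher in lin-45, and 47.1% were with FPKM values. Without N2 50 mM replicate 1, N2 50 mM replicate 2 or lin-45 500 mM replicate 2, 3 of the 8 members were called.

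The trehalase tre-2 was higher in lin-45 by 1.09 ± 0.09 on the log2 scale (adjusted p = 9.36e-05) and tre-5 was lower, at -1.20 ± 0.21 (adjusted p = 0.00158). Both differences were several times the all-gene median and held in each of the 19 alternatives. The synthase tps-1 was higher by 0.47 ± 0.12 (adjusted p = 0.00985), a call lost without N2 50 mM replicate 1 (0.45, adjusted p = 0.0605). The differences of tps-2, 0.30 ± 0.08 (adjusted p = 0.0101), and of tre-1, 0.27 ± 0.08 (adjusted p = 0.0222), were nearer the all-gene median. They were lost in 7 and 11 of the 19 alternatives, with values down to 0.16 and 0.13. For gob-1, which overlapped between the strains, the difference was -0.06 with a 95% interval from -0.24 to 0.11 (adjusted p = 0.506). That difference passed the threshold in 3 of the 19 alternatives, at -0.20 to -0.19. The tre-3 and tre-4 differences of 0.18 and 0.41 were not called (adjusted p = 0.308 and 0.0837).

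Of the 9 intestinal markers in the table, 5 were higher in lin-45 than in N2 on 50 mM, where 33.2% of all genes were. Their summed level was 7318 to 7817 CPM in lin-45 and 4566 to 5048 CPM in N2 on 50 mM. It was 3331 to 3385 CPM in lin-45 and 2445 to 2799.5 CPM in N2 on 500 mM, and 2105 to 2586 CPM in the preconditioned libraries. This sum was highest in the libraries with the highest tre-2, and none of the 9 markers was at 0 in any library. Its largest part was asp-1, at 4496 and 4188 CPM in lin-45 and 2420 and 2724 CPM in N2 on 50 mM. With salt the markers split. In N2, 3 were called higher and 5 lower, where 31.4% and 32.1% of all genes were. In lin-45, 2 were called higher and 6 lower, where 33.4% and 34.9% of all genes were. The part of intestinal RNA in the tre-2 and tre-5 differences was not tested, nor that of the late-embryo markers, of which 8 of 13 were lower and 3 higher in lin-45 on 50 mM.

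On 500 mM the strains were closer. Of the 8 genes, 1 was called, tps-2, higher in lin-45 by 0.43 ± 0.07 on the log2 scale (adjusted p = 0.0134), where 6.49% of all genes were called, 4.84% higher and 1.65% lower. The call was lost without any 1 of the 4 libraries compared (0.37 to 0.48, adjusted p = 0.0573 to 0.125). The synthase tps-1 was likewise above N2 in both lin-45 libraries, by 0.30 with a 95% interval from 0.03 to 0.57. It did not pass the threshold (adjusted p = 0.174), but did with only these groups in the fit (adjusted p = 0.0164) and without either preconditioned library (adjusted p = 0.0131 and 0.0132). The 95% intervals of the other members ran from -0.24 to 0.11 for gob-1, -0.16 to 0.21 for tre-1, -0.12 to 0.29 for tre-2, -0.08 to 0.56 for tre-3, -0.27 to 0.53 for tre-4 and -0.28 to 0.62 for tre-5.

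**Figure D3:**
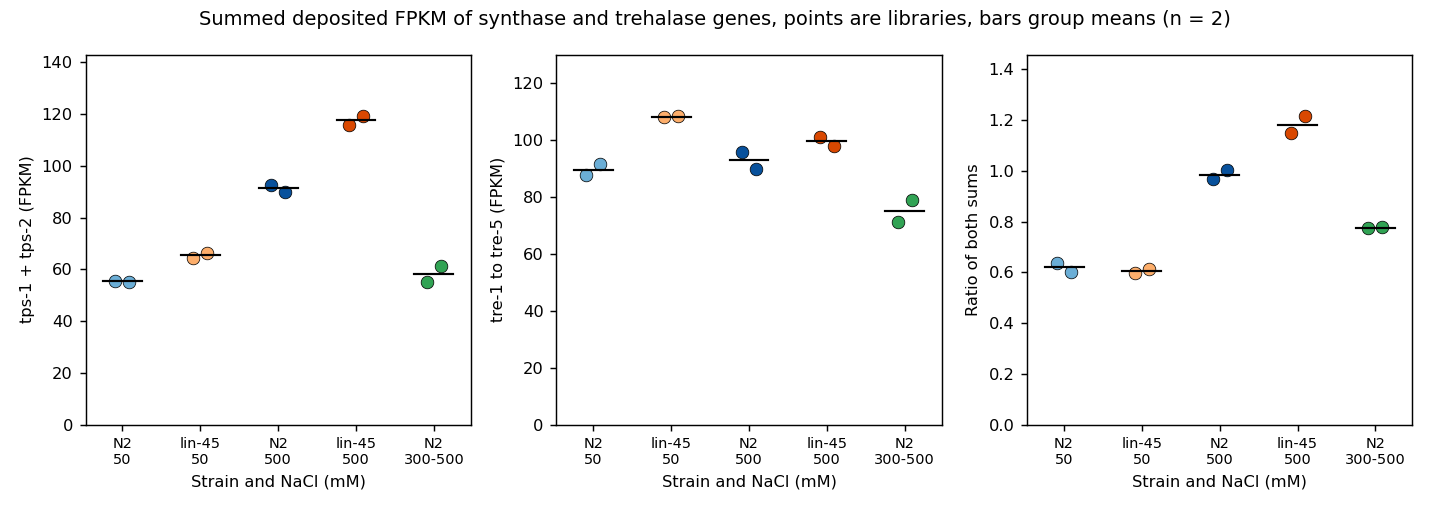
Summed FPKM of the 2 synthases and of the 5 trehalases, and the ratio of the sums, in each of the 10 libraries (points), by group. The ratio lies between 0.597 and 0.635 on 50 mM, between 0.966 and 1.22 on 500 mM without preconditioning, and at 0.775 and 0.777 in the preconditioned libraries.

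Summing by role shows the balance of the 2 arms, on the FPKM scale and with no test. The synthases together were at 55.6 and 55.2 FPKM in N2 and 64.6 and 66.4 FPKM in lin-45 on 50 mM. They were at 92.8 and 90.1 FPKM in N2 and 116 and 119.15 FPKM in lin-45 on 500 mM. The trehalases together were at 87.6 and 91.5 FPKM in N2 and 108 and 108 FPKM in lin-45 on 50 mM. They were at 96.0 and 89.7 FPKM in N2 and 101 and 98.1 FPKM in lin-45 on 500 mM. The synthase sum thus differed between salt levels far more than the trehalase sum. The synthase to trehalase ratio was 0.635 and 0.603 in N2 and 0.597 and 0.613 in lin-45 on 50 mM. It was 0.966 and 1.00 in N2 and 1.15 and 1.22 in lin-45 on 500 mM, with no overlap between salt levels in either strain. Within the trehalases, tre-2 made up 33.1% and 33.5% of the sum in lin-45 on 50 mM, and 14.1% to 20.7% in the other libraries. These sums are of RNA and say nothing of enzyme activity or of the sugar itself.

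Preconditioned embryos were then compared with N2 embryos moved straight to 500 mM. All libraries of this comparison were on 500 mM, and they differed in the salt of the parents. The N2 libraries on 500 mM also enter the salt response of N2, with the opposite sign, so these results are not independent of it. Preconditioned embryos had lower tps-1, tps-2, gob-1, tre-1, tre-2 and tre-4, or 6 of the 8 members lower and 0 higher. Of all genes 22.2% were called, 10.2% higher and 12% lower. Of these calls 45.99% were higher, and with FPKM values 59.9% were. At an unadjusted p below 0.05 there were 7 members lower and 0 higher in edgeR, and DESeq2, limma voom and limma on log2(FPKM + 1) each called 6 lower and 0 higher. The median log2 difference was -0.48 over the 8 genes and 0.05 over all genes. Without N2 500 mM replicate 1, 3 members were called, tps-1, tps-2 and gob-1.

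The synthase tps-1 was at 97.6 and 129.8 CPM in the preconditioned libraries, against 205 and 198 CPM in N2 on 500 mM. This was a log2 difference of -0.82 ± 0.12 (adjusted p = 0.00231). The synthase tps-2 was at 106 and 114 CPM, against 176 and 164 CPM, a difference of -0.62 ± 0.08 (adjusted p = 0.00112). Both synthases were thus near the level of N2 on 50 mM. Against N2 on 50 mM their differences were 0.23 for tps-1, with a 95% interval from -0.05 to 0.50 (adjusted p = 0.132), and -0.09 for tps-2, with an interval from -0.26 to 0.08 (adjusted p = 0.344). Without preconditioned replicate 1, tps-1 was called higher than in N2 on 50 mM (0.34, adjusted p = 0.00577).

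The phosphatase gob-1 lay between the groups, at 104 and 108 CPM, below both N2 libraries on 500 mM and above both on 50 mM. It was lower than in N2 on 500 mM by a log2 difference of -0.49 ± 0.08 (adjusted p = 0.00301) and higher than in N2 on 50 mM by 0.63 ± 0.08 (adjusted p = 0.000211). In the comparison with N2 on 50 mM, 58.3% of all genes were called, 30.4% higher and 27.9% lower, and of the 8 members 1 was higher and 2 lower. The medians were -0.04 over the 8 genes and 0.04 over all. The preconditioned libraries enter both comparisons, so these results are not independent of each other. In FPKM, the ratio of summed synthases to gob-1 was 0.911 and 1.05 in the preconditioned libraries, 1.15 and 1.16 in N2 on 500 mM, and 1.4996 and 1.43 in N2 on 50 mM.

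**Figure D4:**
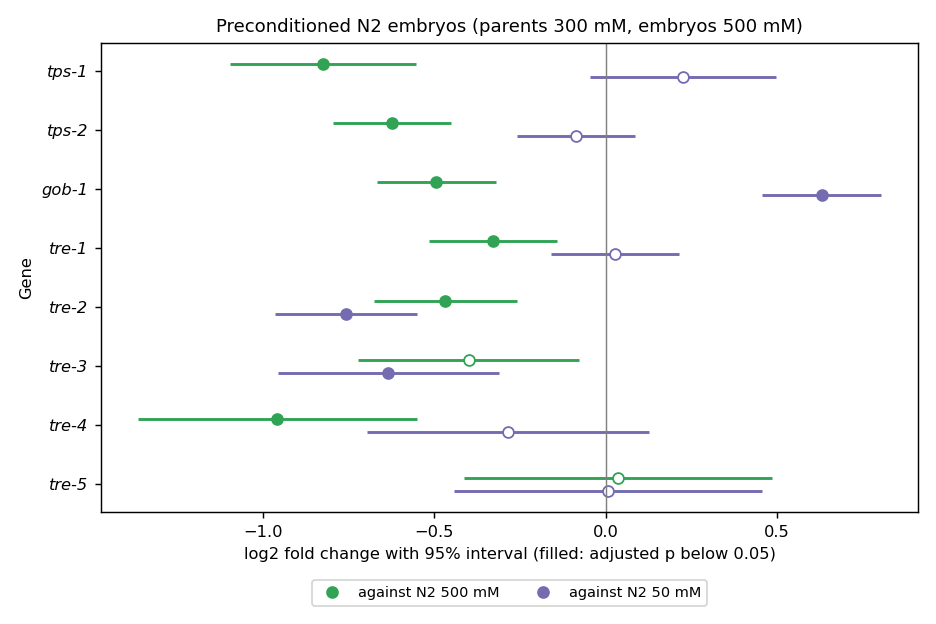
Log2 differences of the 8 genes between preconditioned N2 embryos and N2 embryos on 500 mM or on 50 mM (horizontal axis), with bars for 95% intervals of the edgeR fit. Against 500 mM all estimates but that of tre-5 lie below 0, and gob-1 lies below 0 against 500 mM and above 0 against 50 mM.

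Among the trehalases, tre-2 was at 21.2 and 22.8 CPM in the preconditioned libraries, its lowest level of the 5 groups. It was lower than in N2 on 500 mM by -0.47 ± 0.09 (adjusted p = 0.00855) and than in N2 on 50 mM by -0.76 ± 0.09 (adjusted p = 0.000204), on the log2 scale. The first call was lost with only the compared groups in the fit (-0.46, adjusted p = 0.0892) and without N2 500 mM replicate 1 (-0.37, adjusted p = 0.0651). The tre-3 transcript, at 21.0 and 28.4 CPM, was also below every other library. It was called lower against N2 on 50 mM (-0.63 ± 0.14, adjusted p = 0.00501) and not against N2 on 500 mM (-0.40 ± 0.14, adjusted p = 0.0743), a difference that passed without preconditioned replicate 2 (-0.61, adjusted p = 0.00532).

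The trehalase tre-4 was at 7.86 and 9.43 CPM, below both N2 libraries on 500 mM and overlapping those on 50 mM. It differed from N2 on 500 mM by -0.96 ± 0.18 on the log2 scale (adjusted p = 0.00703), a call lost without N2 500 mM replicate 1 (-0.74, adjusted p = 0.0526). At 69.9 and 78.9 CPM, tre-1 was lower than in N2 on 500 mM by -0.33 ± 0.08 (adjusted p = 0.0223), a call lost in 4 of the 19 alternatives. For tre-5, at 11.9 and 16.7 CPM, the libraries overlapped those of both other N2 groups, with 95% intervals of the difference from -0.41 to 0.49 against 500 mM and from -0.44 to 0.46 against 50 mM. The trehalases together were at 71.3 and 78.9 FPKM, below the other 8 libraries, and the synthases at 55.2 and 61.3 FPKM. The preconditioned libraries differed from each other more than those of other groups did, with early-embryo markers at 249.7 CPM in replicate 1 and 108 CPM in replicate 2. The part of this difference in the results was not tested. The differences of tps-1, tps-2, gob-1, tre-1, tre-2 and tre-4 from N2 on 500 mM kept their sign with either preconditioned library left out. Gastrulation and lineage markers summed to 903 and 918 CPM in the preconditioned libraries and to 688 and 717 CPM in N2 on 500 mM. Of the 10 tested, 6 were called higher and 0 lower, where 10.2% and 12% of all genes were. Both preconditioned libraries share this difference, so leaving 1 out does not remove it, and its part was not tested.

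Trehalose synthesis draws on glucose 6-phosphate and UDP-glucose, and genes around these were counted in lists that the trehalose genes are not part of. Of 6 genes of hexokinases and glucose entry, 4 rose and 1 fell with salt in N2, with a median log2 fold change of 0.69, where 31.4% of all genes were called higher and 32.1% lower. They included the hexokinases hxk-1 (F14B4.2), at 0.85 ± 0.07, and hxk-3 (Y77E11A.1), at 0.66 ± 0.07, and the glucose transporter fgt-1, at 0.79 ± 0.08. The gene that fell, gspd-1 (-0.58 ± 0.09), encodes the glucose 6-phosphate dehydrogenase that draws the same substrate into the pentose phosphate pathway. In lin-45, 3 rose and 1 fell, with a median of 0.37, where 33.4% of all genes were called higher and 34.9% lower.

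Of 9 genes of UDP-glucose and glycogen, 8 rose and 1 fell in N2, with a median log2 fold change of 1.096, and 5 rose and 1 fell in lin-45, with a median of 0.70. The shares of all genes called in these comparisons, 63.5% and 68.3%, apply here too, and the 6 of 9 called in lin-45 are near the second. The UDP-glucose pyrophosphorylase gene K08E3.5 rose by 1.096 ± 0.10 in N2 and by 0.85 ± 0.10 in lin-45. The glycogen debranching enzyme agl-1 rose by 1.56 ± 0.08 and 1.37 ± 0.08, and the glycogen branching enzyme T04A8.7 by 1.22 ± 0.08 and 0.77 ± 0.07. The gene that fell in N2 was the glycogenin gene gyg-1, at -0.34 ± 0.11. The largest change of the list was that of D1005.2, 4.67 ± 0.15 in N2 and 3.57 ± 0.14 in lin-45. Of the 9, 6 had a lower response in lin-45 than in N2, in a test where 14.3% of all genes were called lower. Without N2 50 mM replicate 1 or 2, lin-45 50 mM replicate 1, N2 500 mM replicate 1 or 2 or lin-45 500 mM replicate 2, 2 of the 9 were called, and without lin-45 500 mM replicate 1, 3 were. Those named by the rule include the phosphoglucomutase pgm-2 (Y43F4B.5), at -1.20 ± 0.12, and D1005.2, at -1.11 ± 0.20. From the first list hxk-1 (F14B4.2) also had a lower response in lin-45, at -0.69 ± 0.10.

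Between the strains on 50 mM, 6 of the 9 UDP-glucose and glycogen genes were higher in lin-45, with a median log2 difference of 0.65, against 33.2% higher and a median of 0.16 over all genes. They included pgm-2 (Y43F4B.5), at 1.13 ± 0.09, the glycogen synthase gsy-1, at 0.96 ± 0.16, and the glycogen phosphorylase pygl-1 (T22F3.3), at 0.65 ± 0.09. The libraries on 50 mM also enter the difference of responses above, so the counts of this list in these tests are not independent. Of the 6 hexokinase and glucose entry genes, 3 were higher and 1 lower in lin-45 on 50 mM, where 21.1% of all genes were lower, and gspd-1 differed most, at 0.84 ± 0.09. On 500 mM, gspd-1 was higher by 0.45 ± 0.09 (adjusted p = 0.0204) and fgt-1 was lower by -0.35 ± 0.08 (adjusted p = 0.0387), but these calls were lost in 3 and 7 of the 19 alternatives.

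In preconditioned embryos, against N2 on 500 mM, 5 of the 6 hexokinase and glucose entry genes were lower, with a median log2 difference of -0.44, as were 8 of the 9 UDP-glucose and glycogen genes, with a median of -1.01. Of all genes, 12% were lower in this comparison. It shares the N2 libraries on 500 mM with the salt response of N2, so the counts of the lists in these are not independent. Examples are hxk-1 (F14B4.2), at -1.01 ± 0.07, hxk-2 (H25P06.1), at -0.73 ± 0.12, gsy-1, at -1.52 ± 0.16, agl-1, at -1.01 ± 0.08, and D1005.2, at -1.95 ± 0.13. These named calls held in each of the 19 alternatives. Against N2 on 50 mM, D1005.2 remained higher by 2.72 ± 0.14 and agl-1 by 0.56 ± 0.08, while the glycogenin gene gyg-1 was lower by -0.79 ± 0.12.

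Of the 4 acid alpha-glucosidases, enzymes that release glucose from glycogen or related sugars, aagr-3 and aagr-4 rose with salt in N2 by 0.63 ± 0.07 and 0.87 ± 0.12 on the log2 scale. In lin-45 aagr-3 and aagr-4 rose by 0.50 ± 0.07 and 0.92 ± 0.12, and aagr-1 and aagr-2 fell by -0.79 ± 0.11 and -0.65 ± 0.10. Of all genes, 63.5% were called with salt in N2 and 68.3% in lin-45. On 50 mM aagr-1 and aagr-2 were higher in lin-45 than in N2, by 0.86 ± 0.11 and 0.97 ± 0.10. Like tre-2, aagr-1 and aagr-2 were thus higher in lin-45 than in N2 on 50 mM and fell with salt in lin-45. Both differences use the same lin-45 libraries on 50 mM and are not independent. In preconditioned embryos against N2 on 500 mM, the aagr-1 difference of 0.34 ± 0.11 was not called (adjusted p = 0.0536).

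**Figure D5:**
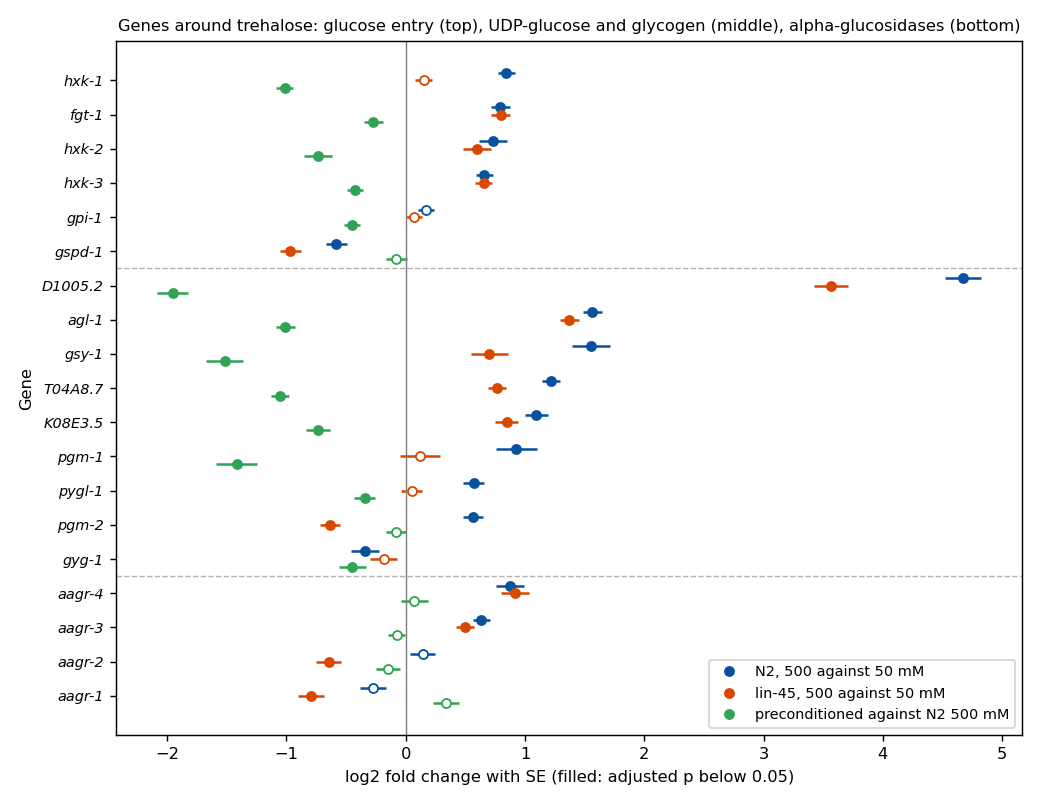
Log2 fold changes of the genes of the 3 neighbouring lists on 500 mM against 50 mM in N2 and in lin-45, and of preconditioned against other N2 embryos on 500 mM, with bars for the SE and filled points for calls at an adjusted p below 0.05. In N2, 8 of 9 UDP-glucose and glycogen genes lie above 0 as calls, and 8 of 9 lie below 0 as calls in the preconditioned comparison. Both comparisons use the same N2 libraries on 500 mM and are not independent.

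The genes most like each member were sought by Pearson's r of log2 CPM over the 10 libraries, among 11012 genes with a mean of at least 5 CPM, for the 6 members whose group means spanned at least 1 on the log2 scale. The points share libraries and groups, so r is a description here. For tps-1 these were M01F1.4 (r = 0.996), scav-3 (0.992) and C34D1.4 (0.990). For tps-2 they were mmcm-1 (0.983), cyp-32A1 (0.974) and cyp-43A1 (0.972). For gob-1 they were gln-3 (0.996), K04C2.3 (0.995) and F41C3.7 (0.994). The 3 genes named for each of these members were thus different ones, and none was another of the 8. With only 3 of 11012 genes named for each, this does not tell whether the profiles of tps-1, tps-2 and gob-1 differ.

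For tre-2 the most alike were eef-1B.1 (r = 0.996), F47A4.5 (0.994) and R05G6.7 (0.993). For tre-4 they were ZK673.2 (0.973), Y48C3A.3 (0.972) and got-1.2 (0.967), and for tre-5 pqn-72 (0.983), cyp-34A2 (0.976) and dhc-4 (0.975). The group means of tre-1 and tre-3 spanned 0.38 and 0.83 on the log2 scale, and no gene is named for them.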

How the data were processed

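RNA was sequenced from 10 libraries of whole embryos, 2 in each of 5 groups, grouped by the labels. Per the labels' protocols, embryos were broken with beads, and polyadenylated RNA was made into TruSeq libraries and sequenced as read pairs. The build ce10 and the tools DESeq 1.10.1, bedtools 2.25.0, RSEM 1.2.15 and BWA 0.6.1 appear in the submitters' processing notes. How each was used is not given in the sources used here, and neither is the annotation or the strandedness. The authors deposited, for each gene and library, an expected count from RSEM (not normalized), an FPKM value and a log2 value that equals log2(FPKM + 1). Of the nonzero expected counts 59.9% were whole, and all were rounded. Deposited FPKM values were used for levels between genes and for sums.

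Counts were tested with edgeR 4.0.16 (R 4.3.3). The 14802 genes with at least 1 CPM in at least 2 libraries were scaled by TMM, with factors from 0.923 to 1.08, and 1 quasi-likelihood model with a mean per group was fitted to all 10 libraries, with 5 residual degrees of freedom. Each of 7 comparisons was tested with a two-sided quasi-likelihood F test and Benjamini-Hochberg adjustment over all tested genes, at a threshold of 0.05. SE and 95% intervals come from this fit. A CPM value is a count scaled to a common, TMM-adjusted library size. Replicates varied by 13.1% (pooled coefficient of variation). With 2 libraries a group, the smallest p of an exact permutation test is 0.333. No replicate pair agreed within counting noise. Depth limits the lowest member most: tre-5 had 110 to 569 counts per library, tps-1 2184 to 7974.

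Alternatives were RLE and upper-quartile factors, DESeq2 1.42.0, limma 3.58.1 on voom weights and on log2(FPKM + 1), no filter, a filter at 5 CPM, only the groups compared, a replicate block, and each library left out, which makes 19. The 8 members and the lists of other genes were chosen with earlier results of these data known. All 8 members are named. Of the 3 pathway lists, up to 4 genes per comparison with the smallest p past the threshold could be named. Stage and tissue lists are given by sums and counts. Coordinates are those of the deposited table.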

Additional observations from a re-analysis of the deposited data

Results flagged for a closer look

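The responses to salt of 2 of the 8 members differed between the strains in the edgeR test of the difference itself. Of all tested genes 26.4% were called in this test, so the count of members is near the share over all genes. The trehalase tre-2 fell further in lin-45 than in N2, with a difference of responses of -1.01 on the log2 scale (adjusted p = 0.00471). The trehalase tre-5 rose in lin-45 and not detectably in N2, with a difference of 1.37 (adjusted p = 0.0135). This call was lost without N2 50 mM replicate 1 (1.46) or N2 500 mM replicate 2 (1.25). In both genes the 2 lin-45 libraries on 50 mM stood apart from the other 8, at 80.4 and 78.4 CPM for tre-2 and at 5.08 and 7.18 CPM for tre-5. With 2 libraries per group, no group was large enough for a check of single outlying libraries.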

How the results depend on the processing

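Of 1064 values of the 8 genes under the 19 alternatives, 965 kept their direction and side of the threshold, 38 lost and 25 gained a call, and 36 changed sign, of which 0 were called. In each of the 19 alternatives, tps-1, tps-2 and gob-1 were called higher with salt in both strains and lower after preconditioning against N2 on 500 mM, and tre-2 and tre-5 were called in lin-45 with salt and between strains on 50 mM.

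With 1 library left out, the number of members called ranged from 1 to 3 for the difference of responses (main 2), 3 to 5 for strains on 50 mM (5), 0 to 2 for strains on 500 mM (1) and 3 to 7 for preconditioned against N2 500 mM (6). The number of all genes called ranged from 787 to 5291, 5188 to 8568, 240 to 2206 and 1430 to 4260 for these, against 3912, 8038, 961 and 3292. Strains on 50 mM gave 3 members without a filter and 3 with only the groups compared. The latter gave 2 members and 2927 genes for strains on 500 mM, and 1263 genes for preconditioned against N2 500 mM. Other counts of members and of all genes stayed within 1.5 times. Of 9 UDP-glucose and glycogen genes, 2 to 6 were called for the difference of responses (main 6), and of 6 hexokinase and glucose entry genes 0 to 2 for strains on 500 mM (main 2). The causes were not tested.

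All changes of sign were in uncalled values. The gob-1 difference of responses was 0.055 with RLE factors, 0.10 with upper-quartile factors, 0.056 with DESeq2, 0.0041 with voom, 0.13 on FPKM, 0.13 without a filter and 0.019 at 5 CPM. Against N2 on 50 mM, preconditioned tre-1 was -0.034 with upper-quartile factors and -0.056 without a filter. The tre-5 value there was -0.055 with upper-quartile factors, -0.024 with voom, -0.078 without a filter, -0.0016 at 5 CPM and -0.014 with only the groups compared. With 1 library left out, sign-changing differences of responses were -0.08 to 0.16 (gob-1), -0.20 to 0.0036 (tps-1), -0.059 to 0.24 (tre-3) and -0.46 to 0.0066 (tre-4). N2 salt gave -0.16 to 0.10 (tre-5), strains on 50 mM -0.20 to 0.013 (gob-1), and strains on 500 mM -0.0051 to 0.18 (tre-2) and -0.056 to 0.35 (tre-4). Preconditioned against N2 500 mM gave -0.20 to 0.18 (tre-5), and against N2 50 mM -0.050 to 0.044 (tre-1) and -0.24 to 0.15 (tre-5).

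Replicate numbers were not used as pairs in the main fit. Differences between replicates 1 and 2 correlated between groups at -0.23 to 0.15, which does not settle whether samples were paired. With a replicate block the same numbers of members were called (6, 5, 2, 5, 1, 6 and 3 in the 7 comparisons), and 8972, 9792, 2928, 7592, 660, 2649 and 8152 genes.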
